A study of Mus musculus with 27 samples.

Results

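The Schlafen family was followed through a first and a second exposure of mouse macrophages to toll-like receptor (TLR) ligands. Its members were taken by name: Slfn1, Slfn2, Slfn3, Slfn4, Slfn5, Slfn8 and Slfn9, with every probe that the array annotation gives one of these symbols. This made 7 genes and 10 probes, out of 24217 names and 55681 probes on the array. Schlafen genes take their name from the German word for sleep, because the founding member was described as a gene that holds T cells in a resting state. The mouse proteins share an N-terminal core and are commonly sorted by length into a short class (Slfn1 and Slfn2), an intermediate class (Slfn3 and Slfn4) and a long class with a helicase-like C-terminal part (Slfn5, Slfn8 and Slfn9). In myeloid cells several of them are known as interferon-stimulated genes, and interferon-beta is itself made when TLR3 or TLR4 is engaged.

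Bone marrow from female C57BL/6 mice of 6 to 8 weeks was grown into macrophages (BMDM) for 7 days in medium conditioned by L929 cells, a fibroblast line that secretes the macrophage growth factor M-CSF. Naive BMDM received no ligand. Acute BMDM received, for 4 h, LPS (a TLR4 ligand, 100 ng/ml), Pam3CSK4 (TLR2, 100 ng/ml), Poly(I:C) (a double-stranded RNA mimic, TLR3, 10 µg/ml) or CpG DNA (TLR9), and re-stimulated BMDM had already been exposed to the same ligand for 24 h and washed before the 4 h stimulation. The CpG dose is not given here because its sources differ. All groups came from this 1 strain, so ligand and exposure were the only labelled differences. No group had the 24 h exposure alone, and no untreated group is labelled as matched to the longer time. RNA left from the first exposure and the longer culture therefore cannot be told apart from a response to the second exposure. Of 27 arrays, 25 had deposited values: 7 groups held 3 arrays, while LPS re-stimulated and acute Pam3CSK4 held 2 each.

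Values are the deposited log2 intensities. They compare 1 probe across groups and never 1 probe with another, because probes differ in how brightly they bind. Between 42.1% and 54.3% of probes stood well above background on 24 of the 25 arrays and 74.6% did on naive replicate 3, so counts against naive cells are also given without that array. The 3 acute LPS arrays lay on slides of their own, were scanned on other days and were read with another design file, and these cannot be told apart from the ligand in any acute LPS comparison. All other groups shared 3 slides, 1 slide for each replicate number. Macrophage markers (7 measured, including Csf1r, Cd68 and Lyz2) were well above background on every array. Of the neutrophil markers, S100a8, Camp and Elane were detected on 25 of 25 arrays, and the log2 of the 5 summed markers ran from 12.31 to 14.89 in naive cells and from 11.7 to 12.31 in acute LPS. Of 4 T cell markers Cd3d and Cd3g passed background on 1 and 2 arrays, but Cd3e and Lck on 25. Among B cell markers Cd79a passed on 25 arrays and Ms4a1 on 1. Of 3 fibroblast markers Pdgfra passed on 0 arrays, Col1a1 on 4 and Col1a2 on 23. Since each array measures a whole culture, fewer cells of a type and less RNA per cell cannot be told apart.

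The sequence in front of each gene is shown first, because 2 sets of letters were found among the members and can be set beside the levels that follow. RefSeq windows of 300 bases (250 before each start and 50 after, assembly GRCm38.p6) were matched for 7 of 7 members. Only the 250 bases before the start were searched, on both strands, and aligned. Counts, shares and identities of windows below refer to those 250 bases. The core letters of the interferon-stimulated response element, the site read by ISGF3 and IRF factors, were written as GAAA, any 2 bases and GAAA again, and occurred in 3 of the 7 windows against 2.98% of 32851 windows. All 3 belong to the long class. The letters TTC, any 3 bases and GAA were also searched, and occurred in 0 of the 7 windows against 7.02% of all windows. Slfn8 and Slfn9 carry the letters on the opposite strand, from positions -48 and -45 relative to the start, in stretches that are nearly the same, and their windows were 80.4% identical over 255 aligned columns. Capitals mark the letters matched.
Slfn5, chr11:82951917-82951976, plus strand: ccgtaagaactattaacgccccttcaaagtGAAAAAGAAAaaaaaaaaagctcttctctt
Slfn8, chr11:83020829-83020888, minus strand: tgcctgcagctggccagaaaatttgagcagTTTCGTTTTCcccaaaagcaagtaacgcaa
Slfn9, chr11:82991846-82991905, minus strand: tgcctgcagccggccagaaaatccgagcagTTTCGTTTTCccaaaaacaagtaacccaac

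The 4 members of the short and intermediate classes had no match to those letters. Their windows share the run ACTTCCTGG, found in 4 of the 7 members and in 0.7% of all windows. This run was noticed in these promoters and not taken from a motif list, so its count among the members is a description and no test. It contains the TTCC core that factors of the ETS family bind. It begins at position -74 in Slfn1, -55 in Slfn2, -42 in Slfn3 and -73 in Slfn4, counted from the start, and is given in capitals. Apart from Slfn8 and Slfn9, pairs of members were between 44.5% and 51.9% identical in these windows.
Slfn1, chr11:83116716-83116775, plus strand: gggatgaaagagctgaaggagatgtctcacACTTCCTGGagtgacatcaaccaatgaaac
Slfn2, chr11:83065027-83065086, plus strand: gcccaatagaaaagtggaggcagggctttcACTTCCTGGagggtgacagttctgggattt
Slfn3, chr11:83191258-83191317, plus strand: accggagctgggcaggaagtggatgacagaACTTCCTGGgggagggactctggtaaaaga
Slfn4, chr11:83175083-83175142, plus strand: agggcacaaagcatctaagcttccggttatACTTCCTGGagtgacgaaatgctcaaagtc

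**Figure D1:**
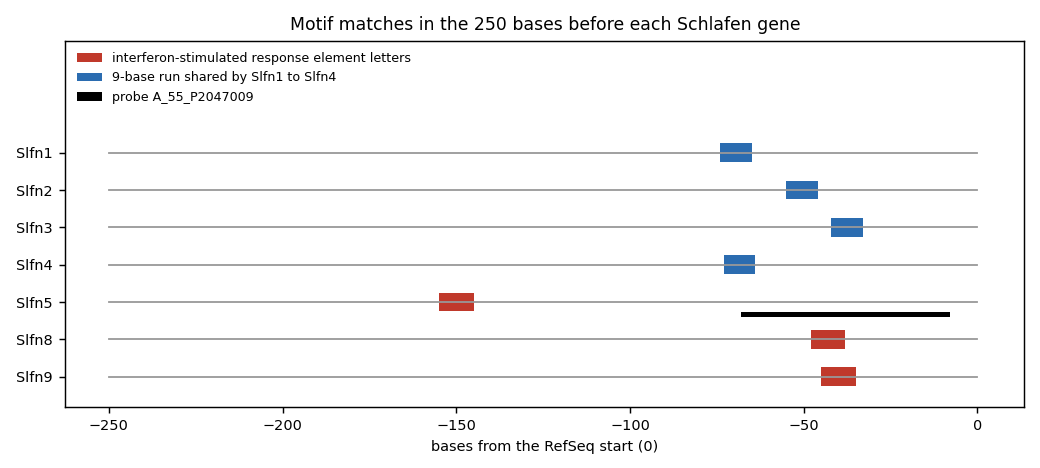
Position of the matched letters in the 250 bases before the RefSeq start of each gene (x axis, bases, start at 0). Red boxes are the interferon-stimulated response element letters, seen in Slfn5, Slfn8 and Slfn9, blue boxes are the 9-base run of Slfn1 to Slfn4, and the black bar is the stretch covered by the Slfn5 probe A_55_P2047009, from position -68 to -9.

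A pair of probes also has to be seen as sequence, because close paralogs can bind to each other's probe. The Slfn8 probe A_55_P2117656 and the Slfn9 probe A_55_P2117649 share an unbroken run of 19 bases, given in capitals. No other pair of member probes shared more than 9. Each of these probes also shares a run (16 and 17 bases) with a probe named Psme2. Whether either binds the other's transcript was not tested, and the second probes of Slfn8 and Slfn9, A_66_P105585 and A_55_P2110537, are therefore given beside them.
Slfn8 probe A_55_P2117656, chr11:82815804-82815863, minus strand: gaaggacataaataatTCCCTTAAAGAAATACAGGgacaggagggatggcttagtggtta
Slfn9 probe A_55_P2117649, chr11:82793914-82793973, minus strand: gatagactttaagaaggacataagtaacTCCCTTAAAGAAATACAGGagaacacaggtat

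**Figure D2:**
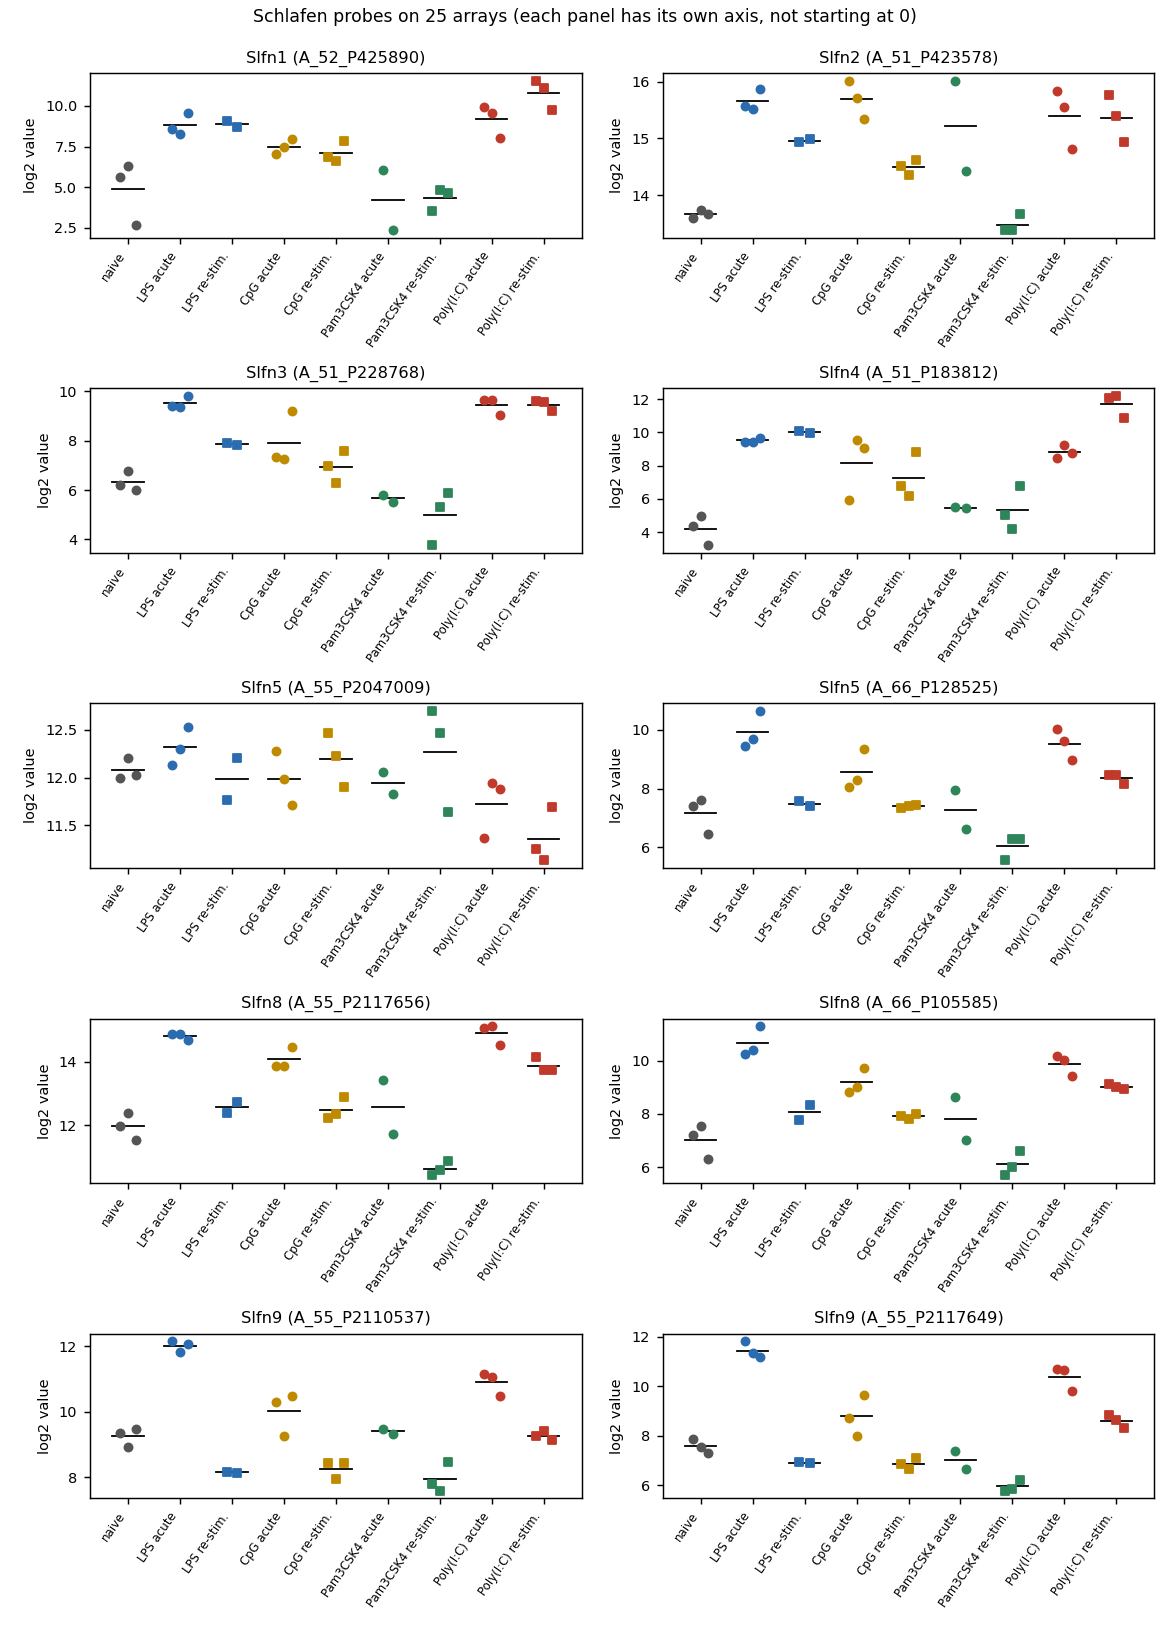
Log2 values of the 10 Schlafen probes (y axis, a separate scale for each panel that does not start at 0) on each of the 25 arrays, by group (x axis), with a bar at the group mean. Circles are naive and acute cells, squares are re-stimulated cells. Slfn4 is highest after Poly(I:C) re-stimulation, whereas both Slfn9 probes lie below naive cells after LPS, CpG and Pam3CSK4 re-stimulation.

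Slfn1 and Slfn2 are the short members. Slfn1, the founding member, is measured by probe A_52_P425890 (mm9 chr11:82935656-82935715, plus strand) and read 5.64, 6.31 and 2.65 in the 3 naive cultures. It read 8.55, 8.28 and 9.58 in acute LPS and 9.95, 9.55 and 8.05 in acute Poly(I:C), all above every naive array. After re-stimulation the values were 9.06 and 8.68 with LPS and 11.55, 11.10 and 9.75 with Poly(I:C), the highest of any group. CpG gave 7.02, 7.47 and 7.99 acutely and 6.87, 6.59 and 7.86 on re-stimulation, between naive and LPS. With Pam3CSK4 the probe stayed at naive levels (6.08 and 2.36 acutely, then 3.55, 4.84 and 4.64) and was not well above background on any of the 3 re-stimulated arrays. The naive mean was 1.44-fold above the mean of that group, but the arrays overlapped and the adjusted p was 0.77 (limma).

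Slfn2, the member whose loss breaks the quiescence of T cells and monocytes in elektra mice, lies at mm9 chr11:82883791-82883850 on the plus strand (A_51_P423578). Its naive values were tight, at 13.59, 13.73 and 13.67. Every acute array of every ligand was higher: 15.57, 15.52 and 15.88 with LPS, 16.02, 15.71 and 15.35 with CpG, 16.01 and 14.42 with Pam3CSK4, and 15.84, 15.55 and 14.82 with Poly(I:C). On re-stimulation, Poly(I:C) kept Slfn2 at 15.76, 15.39 and 14.93, LPS left it at 14.93 and 14.99, CpG at 14.52, 14.35 and 14.62, and Pam3CSK4 at 13.38, 13.39 and 13.66, a range that overlaps naive cells. The Poly(I:C) and LPS values overlapped each other.

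Slfn3 and Slfn4 are the intermediate members. Slfn3 (A_51_P228768, mm9 chr11:83028431-83028490, plus strand) read 6.20, 6.76 and 6.00 in naive cells. LPS brought it to 9.41, 9.38 and 9.82 and Poly(I:C) to 9.64, 9.66 and 9.04. On re-stimulation it held at 9.59, 9.57 and 9.19 with Poly(I:C) but was 7.89 and 7.82 with LPS. CpG gave 7.33, 7.25 and 9.19 acutely, with 1 array far above the others, and 6.96, 6.29 and 7.58 on re-stimulation. Both Pam3CSK4 groups (5.80 and 5.52, then 3.76, 5.32 and 5.87) lay below every naive array.

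Slfn4, known as a marker of activated and suppressive myeloid cells, moved over the widest range with Slfn1. Its probe (A_51_P183812, mm9 chr11:83002974-83003033, plus strand) read 4.37, 4.95 and 3.22 in naive cells, 9.43, 9.45 and 9.68 in acute LPS and 8.47, 9.24 and 8.77 in acute Poly(I:C). Like Slfn1, it did not come down on re-stimulation with either ligand: LPS gave 10.11 and 9.99, and Poly(I:C) gave 12.04, 12.20 and 10.89. These last 3 values lay above every array of every other group. CpG cultures were uneven, at 5.96, 9.52 and 9.08 acutely and 6.76, 6.20 and 8.84 on re-stimulation. Pam3CSK4 gave 5.50 and 5.43, then 5.03, 4.17 and 6.78.

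Slfn5, a long member studied as an interferon-induced nuclear protein, had 2 probes that did not behave alike. The brighter probe (A_55_P2047009, mm9 chr11:82765536-82765595, plus strand) is listed for 1 transcript only and its letters lie in front of the RefSeq start. It read 12, 12.21 and 12.03 in naive cells and stayed between 11.13 and 12.70 on all 25 arrays. The other probe (A_66_P128525, mm9 chr11:82774907-82774966, plus strand) moved with the rest of the family: naive 7.40, 7.62 and 6.44, acute LPS 9.45, 9.69 and 10.65, acute Poly(I:C) 10.03, 9.62 and 8.96. On re-stimulation it read 7.57 and 7.39 with LPS, within the naive range, 7.34, 7.39 and 7.45 with CpG, and 8.45, 8.45 and 8.16 with Poly(I:C). After Pam3CSK4 re-stimulation it was 5.55, 6.27 and 6.27, below every naive array. Over the 25 arrays the correlation between the 2 Slfn5 probes was -0.228, against 0.968 for the 2 Slfn8 probes and 0.957 for the 2 Slfn9 probes.

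Slfn8, a long member linked to thymocyte development, was read by A_55_P2117656 (mm9 chr11:82815804-82815863, minus strand) at 11.97, 12.40 and 11.53 in naive cells. Acute values were 14.87, 14.87 and 14.66 with LPS, 13.87, 13.87 and 14.46 with CpG and 15.06, 15.11 and 14.51 with Poly(I:C), all above naive cells. Acute Pam3CSK4 gave 13.42 and 11.74, 1 above the naive range and 1 within it. Re-stimulation brought the LPS arrays to 12.40 and 12.73, the CpG arrays to 12.24, 12.35 and 12.89, and the Poly(I:C) arrays only to 14.15, 13.73 and 13.73. With Pam3CSK4 the values were 10.43, 10.61 and 10.89, lower than on any array of the other groups. The second probe (A_66_P105585, mm9 chr11:82830985-82831044, minus strand) overlapped naive cells after Pam3CSK4 re-stimulation, where it read 5.69, 6.02 and 6.61 against 7.22, 7.54 and 6.30. Its group means were 7.02 in naive cells, 10.65 and 8.06 in acute and re-stimulated LPS, 9.88 and 9.03 in Poly(I:C), and 6.10 in Pam3CSK4 re-stimulated cells.

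Slfn9 had its own pattern. A_55_P2110537 (mm9 chr11:82793812-82793871, minus strand) read 9.37, 8.93 and 9.48 in naive cells, 12.16, 11.83 and 12.08 in acute LPS, and 11.16, 11.07 and 10.48 in acute Poly(I:C). Acute CpG (10.30, 9.28 and 10.48) overlapped naive cells, as did acute Pam3CSK4 (9.49 and 9.33). After the second exposure the LPS arrays read 8.16 and 8.15, the CpG arrays 8.43, 7.96 and 8.43, and the Pam3CSK4 arrays 7.79, 7.60 and 8.47, all 8 below the lowest naive array. Poly(I:C) re-stimulated cells, at 9.27, 9.41 and 9.15, were back within the naive range. A_55_P2117649 (mm9 chr11:82793914-82793973, minus strand) averaged 7.58 in naive cells, 11.45 and 6.91 in acute and re-stimulated LPS, 8.79 and 6.87 in CpG, 7.03 and 5.96 in Pam3CSK4, and 10.39 and 8.61 in Poly(I:C). On this probe too, every LPS, CpG and Pam3CSK4 re-stimulated array was below every naive array.

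What a first exposure does to resting macrophages was tested by setting each acute group against naive cells. A probe was called changed when the adjusted p of limma (Benjamini-Hochberg over all probes tested) was below 0.05 and the change was at least 1.5-fold. All 7 genes were higher in acute LPS, Slfn1 least firmly, where slides, scan days and design file cannot be told apart from the ligand. Poly(I:C) raised 6 of the 7. In both, Slfn5 passed on A_66_P128525 only. CpG raised Slfn2 and Slfn8, and no Schlafen probe passed the test with Pam3CSK4. Slfn1 and Slfn4 were dim in naive cells (means 4.87 and 4.18), near the median of all probes on an array (4.00 to 4.08). Values of 4.84 and 4.17 for these probes on Pam3CSK4 re-stimulated replicate 2 were not well above background. The size of every fold of Slfn1 and Slfn4 against naive cells is therefore uncertain.

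In acute LPS 9 of the 10 probes rose and 0 fell, where 26.5% of all 29933 probes tested were called in either direction. Slfn4 rose by 5.34 on the log2 scale (40.4-fold, SE 0.44, adjusted p = 0.00103, n = 3 against 3) and Slfn1 by 3.94 (15.3-fold, SE 0.96, adjusted p = 0.0278). The Slfn9 probes rose 6.78-fold (adjusted p = 0.00099) and 14.6-fold (adjusted p = 0.000601), the Slfn8 probes 7.14-fold and 12.4-fold, Slfn3 9.29-fold and Slfn2 3.98-fold. Slfn5 rose 6.86-fold on A_66_P128525, whereas A_55_P2047009 differed by 0.24 (SE 0.19, adjusted p = 0.383). The median log2 difference of the 10 probes was 3.03, against -0.01 over all probes. The count stayed at 9 without any 1 naive array and was 8 without any 1 acute LPS array, since Slfn1 then missed the threshold. Over the 6 such fits its adjusted p ran from 0.00394 to 0.0905. Summed T cell markers were also higher in acute LPS (10.98 to 11.3, naive 9.66 to 10.01) and the summed macrophage markers lower (18.81 to 18.95, naive 19.47 to 19.51), and their part in these differences was not tested.

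In acute Poly(I:C) 8 of the 10 probes rose and 0 fell, against 6.03% of all probes called. Slfn4 rose 25-fold (log2 4.64, SE 0.48, adjusted p = 0.00895), Slfn3 8.74-fold (adjusted p = 0.00668), Slfn8 7.62-fold and 7.26-fold, and Slfn9 3.11-fold and 7.00-fold. Slfn2 rose 3.34-fold and Slfn5, on A_66_P128525, 5.23-fold. Slfn1 was 19.9-fold higher on average but did not pass (log2 4.32, SE 1.04, adjusted p = 0.072), since its naive values spread widely. With the slide (the replicate number) as a block Slfn1 passed (adjusted p = 0.0412), while Slfn2 (0.0575) and the Slfn9 probe A_55_P2110537 (0.0659) did not. The count was 9 without naive replicate 3, 4 and 5 without naive replicates 1 and 2, and 2 and 1 without acute Poly(I:C) replicates 1 and 2. Slfn3 passed in each of these fits. Summed macrophage markers were 19.31 to 19.36 here and 19.47 to 19.51 in naive cells, and their part was not tested.

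In acute CpG 3 of the 10 probes rose, against 5.72% of all probes: Slfn2 4.08-fold (log2 2.03, SE 0.22, adjusted p = 0.0129) and the Slfn8 probes 4.30-fold and 4.48-fold (adjusted p = 0.0228 and 0.0388). Slfn4 was 16.0-fold higher on average with an SE of 1.01 and an adjusted p of 0.0778, and passed in 0 of the 6 fits that left out 1 array (limma adjusted p of 0.0501 to 0.217). The blocked fit kept only Slfn2 (adjusted p = 0.0477), with Slfn8 at 0.0661 and 0.0942. The count fell to 0 without naive replicate 1, naive replicate 2, CpG replicate 1 or CpG replicate 2, and was 3 without naive replicate 3. Macrophage markers summed to 19.28 to 19.36 in acute CpG and 19.47 to 19.51 in naive cells, and their part was not tested.

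In acute Pam3CSK4 0 of the 10 probes passed, as did 0% of all 27843 probes tested with limma. An unadjusted p under 0.05 was seen for 3458 of all probes and for 1 of the 10. That probe was Slfn2, 2.93-fold higher on average (SE 0.49 on the log2 scale, adjusted p = 0.343), with both arrays above every naive array. Slfn4 was 2.44-fold higher on average (adjusted p = 0.429), and Slfn3 differed by -0.66 (adjusted p = 0.462).

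**Figure D3:**
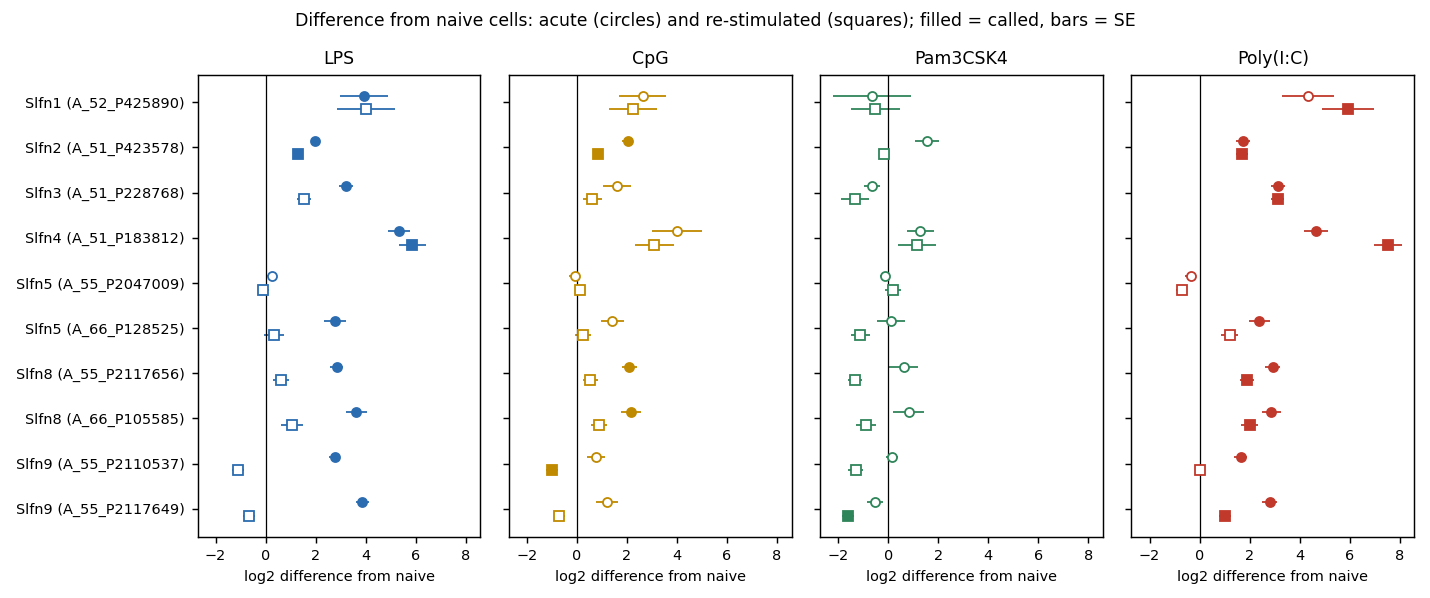
Log2 difference from naive cells (x axis) of each Schlafen probe for the 4 ligands, after acute stimulation (circles) and re-stimulation (squares). Bars are standard errors and filled symbols passed the test: 9 probes in acute LPS and 8 in acute Poly(I:C) are filled to the right of the zero line, and Slfn9 squares lie left of it for LPS, CpG and Pam3CSK4.

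Whether the ligands themselves differed was tested between acute groups that shared slides. Poly(I:C) gave higher values than Pam3CSK4 for Slfn3 (log2 difference 3.79, SE 0.27, adjusted p = 0.0159), Slfn4 (3.36, SE 0.28, adjusted p = 0.0164) and the Slfn9 probe A_55_P2117649 (3.36, SE 0.39, adjusted p = 0.0253), which makes 3 of 10 probes against 2.42% of all probes. All 3 had an adjusted p of 0.0589 in the blocked fit, and the count was 0 without either Pam3CSK4 array or without Poly(I:C) replicate 1 or 2. Slfn2, in contrast, differed by 0.19 (SE 0.57, adjusted p = 0.909) between these ligands. Between Poly(I:C) and CpG 0 of 10 probes passed (0.173% of all probes), and the largest mean difference was 1.69 for Slfn1 (SE 0.53, adjusted p = 0.246). Here 4 of the 10 had an unadjusted p under 0.05 in limma, against 3692 of all 26534 probes tested. Between CpG and Pam3CSK4 0 of 10 passed (0% of all probes), again with 4 unadjusted p-values under 0.05, against 882 of all 25399 probes tested.

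The second exposure was then set against the first, the comparison by which tolerance is defined. LPS-treated cells showed lower levels of Slfn3, Slfn5, Slfn8, Slfn9 and, less firmly, Slfn2 on re-stimulation, and CpG-treated cells lower levels of Slfn2, Slfn8 and Slfn9. In Poly(I:C) cells Slfn9 fell while Slfn4 rose further. Neither Slfn1 nor Slfn4 passed as lower in any of these tests.

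For LPS 7 of the 10 probes were lower and 0 higher, against 34.2% of all probes called in either direction. Slfn9 fell most, with log2 differences of -3.87 (14.6-fold, SE 0.20, adjusted p = 0.000257, n = 2 against 3) and -4.54 (23.2-fold, SE 0.25, adjusted p = 0.000318). Slfn8 fell 4.71-fold and 6.03-fold, Slfn5 5.45-fold on A_66_P128525, Slfn3 3.21-fold (adjusted p = 0.00323) and Slfn2 1.62-fold (adjusted p = 0.0456). The Slfn2 call is the weakest of these: it was lost in the blocked fit (adjusted p = 0.0651) and in all 5 fits that left out 1 array, and stood in 3 of 9 other settings. Slfn4 was 0.53 higher (SE 0.20, adjusted p = 0.0836), and Slfn1 differed by 0.07 (SE 0.41, adjusted p = 0.912). The acute arrays carry the slides and scan days described above, which cannot be told apart from the exposure here. Summed neutrophil markers were 11.7 to 12.31 in acute and 14.51 to 14.95 in re-stimulated cells, T cell markers 10.98 to 11.3 and 9.64 to 9.93, and macrophage markers 18.81 to 18.95 and 19.35 to 19.41, and their part was not tested. Against naive cells, which shared slides with the re-stimulated arrays, 2 of 10 probes passed and both were higher (5.66% of all probes): Slfn4 by 5.87 (58.4-fold, SE 0.54, adjusted p = 0.0165) and Slfn2 by 1.30 (SE 0.17, adjusted p = 0.03). The blocked fit added Slfn1 (adjusted p = 0.0211) and Slfn3 (0.0403), although same-numbered arrays deviated together only weakly here (correlations of 0.05 to 0.12). Without naive replicate 3 the count was 6, with Slfn1, Slfn2, Slfn3 and Slfn4 higher and both Slfn9 probes lower. It was 1 without naive replicate 2, and 0 without naive replicate 1 or either re-stimulated array. Macrophage markers summed to 19.47 to 19.51 in naive cells, above the re-stimulated arrays, and their part was not tested.

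For CpG 3 of the 10 probes were lower than in acute cells, against 3.56% of all probes: Slfn9 on A_55_P2110537 (log2 -1.75, SE 0.35, adjusted p = 0.0496), Slfn8 on A_55_P2117656 (-1.58, SE 0.26, adjusted p = 0.0385) and Slfn2 (-1.20, SE 0.22, adjusted p = 0.0445). The other Slfn9 probe passed in the blocked fit (-1.92, adjusted p = 0.0426) and Slfn2 did not (0.0555). Slfn4 differed by -0.92 with an SE of 1.08. The count was 4 without acute CpG replicate 3, and 0 when any of the other 5 arrays was left out. Against naive cells 2 of 10 passed (13.1% of all probes): Slfn2 was still 1.78-fold higher (adjusted p = 0.0266, 0.0644 blocked) and Slfn9 was 1.98-fold lower on A_55_P2110537 (adjusted p = 0.044, 0.0436 blocked). On the 3 slides that Slfn9 probe differed by -1.05 to -0.94, but with arrays scaled to a common median its difference was -0.14 (adjusted p = 0.88). The count was 3 without naive replicate 3 and 0 without any of the other 5 arrays. Macrophage markers summed to 19.06 to 19.31 in CpG re-stimulated, 19.28 to 19.36 in acute CpG and 19.47 to 19.51 in naive cells, and their part was not tested.

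For Pam3CSK4 0 of the 9 probes tested passed (0% of all 25430 probes), with 6 unadjusted p-values under 0.05 in limma against 3461 over all probes, and Slfn1 was left untested because too few arrays detected it. Those 6 probes, of Slfn2, Slfn5, Slfn8 and Slfn9, differed by -1.94 to -1.07 from the 2 acute arrays on average. Against naive cells 1 of 10 probes passed (5.36% of all probes): Slfn9 on A_55_P2117649 was 3.08-fold lower (log2 -1.62, SE 0.23, adjusted p = 0.0265, 0.0683 blocked). The other Slfn9 probe differed by -1.31 (adjusted p = 0.0607), and Slfn8 on A_55_P2117656 by -1.32 (adjusted p = 0.0518). Without naive replicate 3 the count was 4, all lower: both Slfn8 probes, Slfn5 on A_66_P128525 and Slfn9 on A_55_P2117649. It was 1 without re-stimulated replicate 3 and 0 without any of the other 4 arrays.

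For Poly(I:C) 3 of the 10 probes changed from acute to re-stimulated cells, against 4.93% of all probes. Slfn4 rose by a further 2.89 (7.39-fold, SE 0.40, adjusted p = 0.0256), with per-slide differences of 2.12 to 3.57. Both Slfn9 probes fell, with differences of -1.62 (SE 0.23, adjusted p = 0.0263) and -1.78 (SE 0.30, adjusted p = 0.0344). Slfn1 was higher by 1.61, by 1.55 to 1.70 on the 3 slides, and passed in the blocked fit (adjusted p = 0.0373) but not without the block (0.179). Slfn2 and Slfn3 differed by -0.04 (SE 0.34) and by under 0.01 (SE 0.24), and the Slfn8 probes by -1.02 and -0.85 (adjusted p = 0.0626 and 0.0872). The count was 0 without acute replicate 1 or 2 or re-stimulated replicate 1 or 2, 6 without acute replicate 3 and 3 without re-stimulated replicate 3.

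Against naive cells, Poly(I:C) re-stimulated macrophages still held 7 of the 10 probes higher and 0 lower, where 9.03% of all probes were called. Slfn4 was 184-fold higher (log2 7.53, SE 0.55, adjusted p = 0.00428), by 7.25 to 7.67 on the 3 slides, and Slfn1 61.0-fold higher (5.93, SE 1.03, adjusted p = 0.0255). Both folds rest on the dim naive values of these probes, so their size is uncertain. Slfn3 was higher by 3.13 (adjusted p = 0.00592), Slfn2 by 1.70, Slfn8 by 1.90 and 2.01, and Slfn9 on A_55_P2117649 by 1.02 (adjusted p = 0.0485). The other Slfn9 probe differed by 0.02 (SE 0.21, adjusted p = 0.971). Slfn5 on A_55_P2047009 differed by -0.72 (adjusted p = 0.0894), and by 0.14 with arrays scaled to a common median. The count was 7 without naive replicate 3, 8 without re-stimulated replicate 3, 2 without naive replicate 1 or re-stimulated replicate 1 or 2, and 3 without naive replicate 2. Slfn3 and Slfn4 passed in each of these fits. Macrophage markers summed to 18.8 to 19.24 in this group, below the naive arrays, and their part was not tested.

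**Figure D4:**
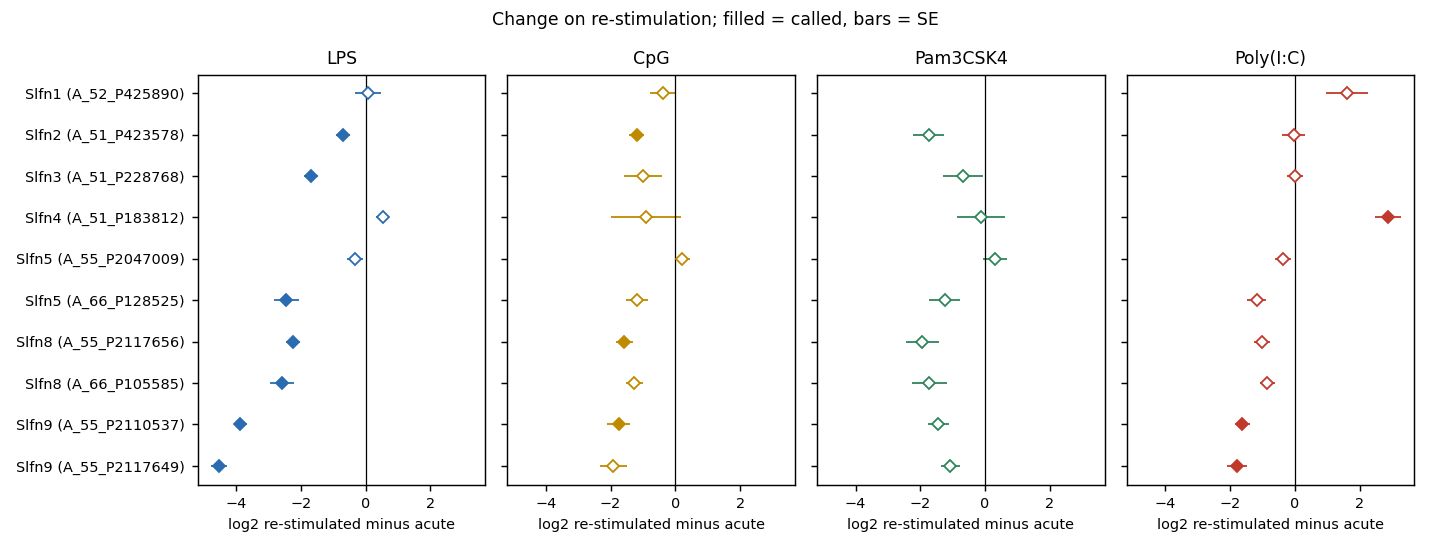
Log2 difference between re-stimulated and acute cells (x axis) of each Schlafen probe for the 4 ligands, with standard errors as bars and filled symbols for probes that passed the test. Slfn9 lies furthest left for LPS, at -3.87 and -4.54, and Slfn4 lies furthest right for Poly(I:C), at 2.89. Slfn1 was not tested for Pam3CSK4 and has no symbol there.

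A test of the change on re-stimulation between ligands, in 1 limma fit of the 9 groups chosen after the values were seen, called 0 of the 10 probes in each of 3 contrasts among Poly(I:C), CpG and Pam3CSK4. LPS was left out because its acute arrays lay on other slides. Slfn4 changed by 3.80 more with Poly(I:C) than with CpG (SE 1.14, unadjusted p = 0.00358 and adjusted p = 0.25 in limma) and by 3.02 more than with Pam3CSK4 (SE 1.21, adjusted p = 0.33). Slfn2 changed by 1.70 more with Poly(I:C) than with Pam3CSK4 (SE 0.48, adjusted p = 0.165). Unadjusted p-values under 0.05 were seen for Slfn4 and Slfn2 with Poly(I:C) against CpG and against Pam3CSK4, and for no Schlafen probe with CpG against Pam3CSK4. Over all probes there were 3011 of 27783, 3264 of 27725 and 223 of 26455 in these 3 contrasts. Few probes of any gene passed in these contrasts (0.0396%, 0.119% and 0.00378%). A difference among these 3 ligands in the change on re-stimulation of any Schlafen gene was not shown.

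By the definition used in the study, a probe is tolerized when it is called higher acutely and its mean is at least 1.5-fold lower on re-stimulation. As a description, with no further test, 7 of the 9 probes called higher in acute LPS fell in that class (Slfn2, Slfn3, Slfn5, Slfn8 and Slfn9), as did 3 of 3 for CpG (Slfn2 and Slfn8) and 5 of 8 for Poly(I:C) (Slfn5, Slfn8 and Slfn9). The share of all acutely induced probes in that class was not counted, so these counts show nothing particular to the family. The same acute arrays also enter both the rise and the fall. The class needs no call for the fall: with Poly(I:C) the Slfn5 probe (limma adjusted p = 0.0718) and the Slfn8 probes (0.0626 and 0.0872) were not called lower. With CpG the Slfn8 probe A_66_P105585 was not either (0.0537). Among the probes called higher acutely, Slfn4 with Poly(I:C) was the only one at least 1.5-fold higher on re-stimulation. The part of the acute log2 rise that was left after re-stimulation ordered the genes in LPS from Slfn4 (110%) and Slfn1 (102%) through Slfn2 (65.1%), Slfn3 (47.7%) and Slfn8 (21.1% and 28.6%) to Slfn5 (11.9%), with Slfn9 at -40.0% and -17.3%. Its means were thus below those of naive cells, but neither Slfn9 probe passed that comparison in limma. The differences were -1.11 (adjusted p = 0.0658) and -0.67 (adjusted p = 0.154), and -0.65 and -0.38 with arrays scaled to a common median. In Poly(I:C) the part left was 162% for Slfn4, 100% for Slfn3, 97.6% for Slfn2, 65.0% and 70.3% for Slfn8, 50.4% for Slfn5 on A_66_P128525, and 1.0% and 36.5% for Slfn9. Every LPS percentage rests on the acute LPS arrays, whose slides, scan days and design file cannot be told apart from the ligand. The LPS and Poly(I:C) orders were therefore not compared.

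The type I interferon pathway was read beside the family from a list of 14 genes, of which 13 were tested in each comparison named here. Ifnb1, the interferon-beta gene, averaged 3.00 in naive cells (well above background on 1 of 3 arrays), 13.33 in acute LPS, 11.63 in acute Poly(I:C), 9.87 in acute CpG and 5.56 in acute Pam3CSK4. After re-stimulation it was 8.88 with LPS, 12.47 with Poly(I:C), 9.81 with CpG and 3.88 with Pam3CSK4. In acute LPS, on slides of its own, 6 of the 13 were higher (Ifnb1, Irf1, Stat2, Tyk2 and the feedback inhibitors Usp18 and Socs1). The receptor chain Ifnar1 was lower, and 26.5% of all probes were called in either direction. Poly(I:C) raised 5 (Ifnb1, Irf1, Stat2, Usp18 and Socs1), where 6.03% of all probes were called. CpG raised 3 (Ifnb1, Irf1 and Socs1), where 5.72% were called. On LPS re-stimulation 5 of the 13 were lower than in acute cells and 3 higher, against 34.2% of all probes called. Slides, scan days and design file of the acute LPS arrays cannot be told apart from the exposure there. Irf7, an interferon-induced factor that drives later interferon genes, was higher on re-stimulation with LPS (by 2.22, adjusted p = 0.00282) and with Poly(I:C) (by 2.05, adjusted p = 0.0424), whereas the log2 change of Irf1 was -3.21 with LPS (adjusted p = 0.000591), -2.15 with CpG (adjusted p = 0.031) and -1.79 with Poly(I:C) (adjusted p = 0.0371). Within the Schlafen family, Slfn4 rose and Slfn9 fell in that last comparison.

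Genes with the most similar profile were ranked by Pearson correlation with the brightest probe of each member over the 25 arrays, among 18570 probes. The arrays share 9 groups and a few slides, so these coefficients are a description only. Slfn3 lay closest to Pydc3 (0.982), Ifit2 (0.978) and Tgtp2 (0.978), and Slfn8 to LOC640793 (0.978), Irf1 (0.977) and Parp9 (0.974). Slfn1 lay closest to Pyhin1, Gm14446 and Xaf1 (0.947 to 0.949) and Slfn4 to Ube2l6 (0.944), D14Ertd668e and Phf11 (both 0.922). Slfn2 was followed by Parp8 (0.934), Ccrl2 (0.912) and Wdr92 (0.907), and Slfn9 by Nxf1 (0.942), D5Wsu152e (0.938) and Prkx (0.934). The flat Slfn5 probe reached 0.861 at most (Nrap). Within the family the highest coefficient between genes was 0.979, for Slfn5 on A_66_P128525 and Slfn8 on A_66_P105585. The lowest, leaving out the flat Slfn5 probe, was 0.316, for Slfn4 and Slfn9 on A_55_P2110537.

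Other Schlafen names on the array were read beside the members. Slfn10-ps, annotated as a pseudogene of the same cluster, averaged 11.65 in naive cells, 14.17 in acute LPS, 13.79 in acute Poly(I:C), 12.16 in LPS re-stimulated, 13.21 in Poly(I:C) re-stimulated and 10.20 in Pam3CSK4 re-stimulated cells. Whether its probe also binds transcripts of Slfn8 was not tested. Slfn14-ps was well above background on 0 of the 25 arrays and Slfnl1 on 2.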

How the data were processed

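RNA from 27 macrophage cultures was hybridised to 1-colour Agilent arrays with 62976 spots each. The authors deposited log2 values for 55681 probes of 25 arrays after quantile normalization in limma, with the background first corrected by the RMA model, and the scanner files with the background-corrected and raw intensity of each spot, also deposited. The column medians of the log2 values were 4.00 to 4.08. The log2 values remade here from the deposited intensities differed from them by a median of 0.0354 and served as an alternative. The 2 arrays without deposited log2 values, marked in their labels as failing quality control, entered only that alternative.

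Groups were taken from the sample labels. Each comparison was fitted alone with limma 3.58.1 in R 4.3.3 (lmFit and eBayes) on probes that 1 of its groups or both detected well above background on 2 or more arrays, with Benjamini-Hochberg adjustment over all probes tested. A call needed an adjusted p below 0.05 and a 1.5-fold change. The fitting code was tested on simulated data. Probe coordinates are those of the array annotation (mm9), promoter sequences are RefSeq's (GRCm38.p6), and the 2 builds were not combined. Figures were drawn with matplotlib 3.10.9 in Python 3.11.15.

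The replicate number equals the slide for all groups but acute LPS, and same-numbered arrays deviated together in every such comparison of 3 pairs (correlations of 0.14 to 0.56 over 25676 probes), so values with the number as a block stand beside results whose call they change. LPS re-stimulated against naive cells, with 2 pairs on shared slides, gave only 0.05 to 0.12. Acute LPS, on other slides, gave 0.02 to 0.04 against naive cells and 0.11 to 0.16 against LPS re-stimulated cells. The study describes its replicates in more than 1 way, and p-values measure only the spread between these arrays, whose number limits the precision.

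The members, marker lists, interferon list and tests were chosen with earlier results of these data known. A few items of these lists are not reported here. The named genes are all members with all their probes and, for each, the 3 genes with the most similar profile to its brightest probe among those well above background on at least 12 arrays.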

Additional observations from a re-analysis of the deposited data

Results flagged for a closer look

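Slfn3, Slfn4 and Slfn9 differed between ligands in a direct test. Acute Poly(I:C) exceeded acute Pam3CSK4 by 3.79 for Slfn3, by 3.36 for Slfn4 and by 3.36 for the Slfn9 probe A_55_P2117649 on the log2 scale, with limma adjusted p-values of 0.0159 to 0.0253. These calls did not hold with the replicate number as a block (adjusted p = 0.0589).

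The 2 arrays without deposited values are marked in their labels as failing quality control. They stood well above background at 92.3% and 99.9% of probes, far more than the arrays used. On the acute Pam3CSK4 array 22.8% of spots were also flagged by the scanner software. Their values are listed as a description and not as support for any result. On values remade from their intensities, several members were above all naive arrays. LPS re-stimulated replicate 3 read 13.95 for Slfn2 (naive 13.58 to 13.71, its own group 14.9 to 14.96), 7.73 for Slfn4 (naive 3.49 to 5.2, own group 10.08 to 10.19) and 10.2 for Slfn9 on A_55_P2110537 (naive 9.06 to 9.58, own group 8.31 to 8.32). Acute Pam3CSK4 replicate 2 read 15.53 for Slfn2 (own group 14.4 to 15.97), 12.58 for Slfn8 on A_55_P2117656 (naive 11.57 to 12.41, own group 11.77 to 13.41) and 12.65 for Slfn9 on A_55_P2110537 (own group 9.44 to 9.59). Other members on these arrays lay at or below naive cells, among them Slfn4 at 2.45 and Slfn3 at 4.15 on the Pam3CSK4 array.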

How the results depend on the processing

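Counts are Schlafen probes called out of 10. No called difference changed direction, but differences that were not called did so in 41 of 1670 recomputed under other settings and in 66 of 1175 with 1 array left out. Of the differences recomputed under other settings, 1531 kept their side of the threshold, 49 lost it and 90 gained it, and of those with 1 array left out 1031 kept it, 122 lost it and 22 gained it. The cause of the changes was not tested. For acute CpG against naive the count of 3 became 5 with median scaling, 8 in 1 fit of all groups, 9 when the slide was added to it as a random block, and 1 without the filter on dim probes. In the 1 fit of all groups and with the slide added, acute Pam3CSK4 against naive gave 1 and 1, Pam3CSK4 re-stimulated against acute 4 and 4, LPS re-stimulated against naive 4 and 5, Pam3CSK4 re-stimulated against naive 3 and 5, acute Poly(I:C) against acute CpG 1 and 2, and acute Poly(I:C) against acute Pam3CSK4 8 and 8. The slide fit gave 6 for CpG and 5 for Poly(I:C) re-stimulated against acute, and 4 for CpG re-stimulated against naive. Without the filter the counts were 5 for acute Poly(I:C) against naive, 0 and 1 for CpG and Poly(I:C) re-stimulated against acute, and 1, 0 and 0 for LPS, CpG and Pam3CSK4 re-stimulated against naive. Detection on every array of a group gave 5 for CpG re-stimulated against acute and 2 for Pam3CSK4 re-stimulated against naive. Median scaling, which shifted the median of all probes by -0.16 to 0.77, gave 0 for Pam3CSK4 re-stimulated against naive and 7 for acute Poly(I:C) against acute Pam3CSK4. The 75th percentile scaling gave 6 and 4 for LPS and Pam3CSK4 re-stimulated against naive. All 27 arrays, with those that failed quality control included, gave 3 for LPS re-stimulated against acute, 0 for LPS re-stimulated against naive and 0 for acute Poly(I:C) against acute Pam3CSK4.

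With the replicate block the counts were 8 for acute LPS, 1 for acute CpG, 0 for acute Pam3CSK4 and 7 for acute Poly(I:C) against naive, 6, 3, 0 and 4 for LPS, CpG, Pam3CSK4 and Poly(I:C) re-stimulated against acute, and 4, 1, 0 and 7 against naive. It gave 0 for the comparisons between acute ligands and for the 3 contrasts of the change on re-stimulation.

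With 1 array left out in turn, the counts against naive ran from 8 to 9 for acute LPS, 0 to 3 for acute CpG, 0 to 0 for acute Pam3CSK4, 1 to 9 for acute Poly(I:C), 2 to 8 for re-stimulated Poly(I:C), 0 to 6 for re-stimulated LPS, 0 to 3 for re-stimulated CpG and 0 to 4 for re-stimulated Pam3CSK4. Re-stimulated against acute they ran from 6 to 7 for LPS, 0 to 6 for Poly(I:C), 0 to 4 for CpG and 0 to 0 for Pam3CSK4. Acute Poly(I:C) against acute CpG ran from 0 to 1, acute Poly(I:C) against acute Pam3CSK4 from 0 to 4, acute CpG against acute Pam3CSK4 stayed at 0, and the contrast of Poly(I:C) with Pam3CSK4 ran from 0 to 1, reaching 1 without Pam3CSK4 acute replicate 3 or Poly(I:C) re-stimulated replicate 3.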

Other observations

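LOC640793, a schlafen family member 13-like name that is outside the chosen members and was picked after its values were seen, averaged 6.90 in naive cells, 9.88 in acute LPS, 9.62 in acute Poly(I:C) and 8.86 in acute CpG on the log2 scale. After re-stimulation its means were 7.72 with LPS, 8.56 with Poly(I:C), 7.49 with CpG and 5.57 with Pam3CSK4. Slfnl1, a more distant relative, was well above background on 2 of 25 arrays, 1 of them a CpG re-stimulated array at 11.7.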
